A study of Mus musculus with 6 samples.

Results

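The dystrophin glycoprotein complex is described here through 8 of its genes in mouse cardiomyocyte (CM) nuclei: *Dmd*, *Utrn*, *Dag1*, *Sgca*, *Sgcb*, *Sgcd*, *Dtna* and *Lama2*. They were chosen by name, as the rows of the count table whose Ensembl identifier carries one of these symbols in the GENCODE M21 annotation. All 8 were found among the 54532 genes of the table. All 8 also passed the filter on low counts, which kept 13323 genes.

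The complex spans the surface membrane of heart and skeletal muscle cells. Inside the cell, dystrophin holds actin filaments, and its relative utrophin can take the same place. In the membrane, dystroglycan and the sarcoglycans carry the link outward, and outside the cell dystroglycan holds laminin of the basement membrane. Loss of dystrophin, of a sarcoglycan or of laminin alpha 2 causes forms of muscular dystrophy, many of them with heart disease. In CMs, dystroglycan has also been described as a binding partner of YAP, the transcriptional coactivator that the Hippo pathway restrains.

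The study asked how CMs respond to 2 active forms of YAP. YAP5SA has serine-to-alanine changes at the sites that the LATS kinases phosphorylate, and YAP6SA has an additional change at a serine needed for contact with the TEAD family of DNA-binding factors. Wildtype ICR mice received 1e+11 viral genomes of AAV9 under the skin at postnatal day 6, and the virus carried GFP, YAP6SA or YAP5SA behind the cTnT promoter, which is active in CMs. At day 9, nuclei were pulled down with an antibody to PCM-1, a protein on the nuclear surface of CMs, and their poly-A RNA was sequenced without strand information.

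The 3 groups (GFP, YAP6SA and YAP5SA) had 2 libraries each, 1 in batch 1 and 1 in batch 2, so that replicates 1 and 2 are batches 1 and 2. All animals therefore carried AAV9 and a transgene, and no uninjected heart is among the libraries. The labels give 2 hearts per virus but do not tie each library to 1 heart, so p-values measure the spread between these libraries. The reads on genes numbered 18832871 and 16362077 in GFP, 19615627 and 17176301 in YAP6SA, and 14552847 and 17197114 in YAP5SA (batch 1, then batch 2, here and throughout). Expression is given as CPM, counts scaled to a common library size with TMM factors. The reads counted on endogenous *Yap1* came to 139 and 129 CPM in GFP, 121.5 and 130 CPM in YAP6SA and 138 and 102 CPM in YAP5SA. The overexpression was thus not visible on this gene, and whether reads of the viral cassette are counted there was not tested.

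In YAP5SA OE (overexpressing) CMs, *Utrn* was higher and *Sgca* and *Lama2* were lower than in GFP, and the same 3 genes differed in the same directions from YAP6SA OE CMs. The other 5 genes did not pass the test in either comparison. In YAP6SA OE CMs, 0 of the 8 genes passed the test against GFP. The test was edgeR's quasi-likelihood test in a model with terms for group and batch, and FDR is its Benjamini-Hochberg adjusted p over all 13323 genes, with 0.05 as the threshold. Of all genes, 22% were called in YAP5SA against GFP (12.8% higher and 9.18% lower), 14.7% in YAP5SA against YAP6SA (9% higher and 5.68% lower) and 0.045% in YAP6SA against GFP. The comparisons share libraries, so their values stand side by side and do not support each other. Since whole-library RNA was measured, fewer nuclei that use a gene and less RNA per nucleus cannot be told apart.

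**Figure D1:**
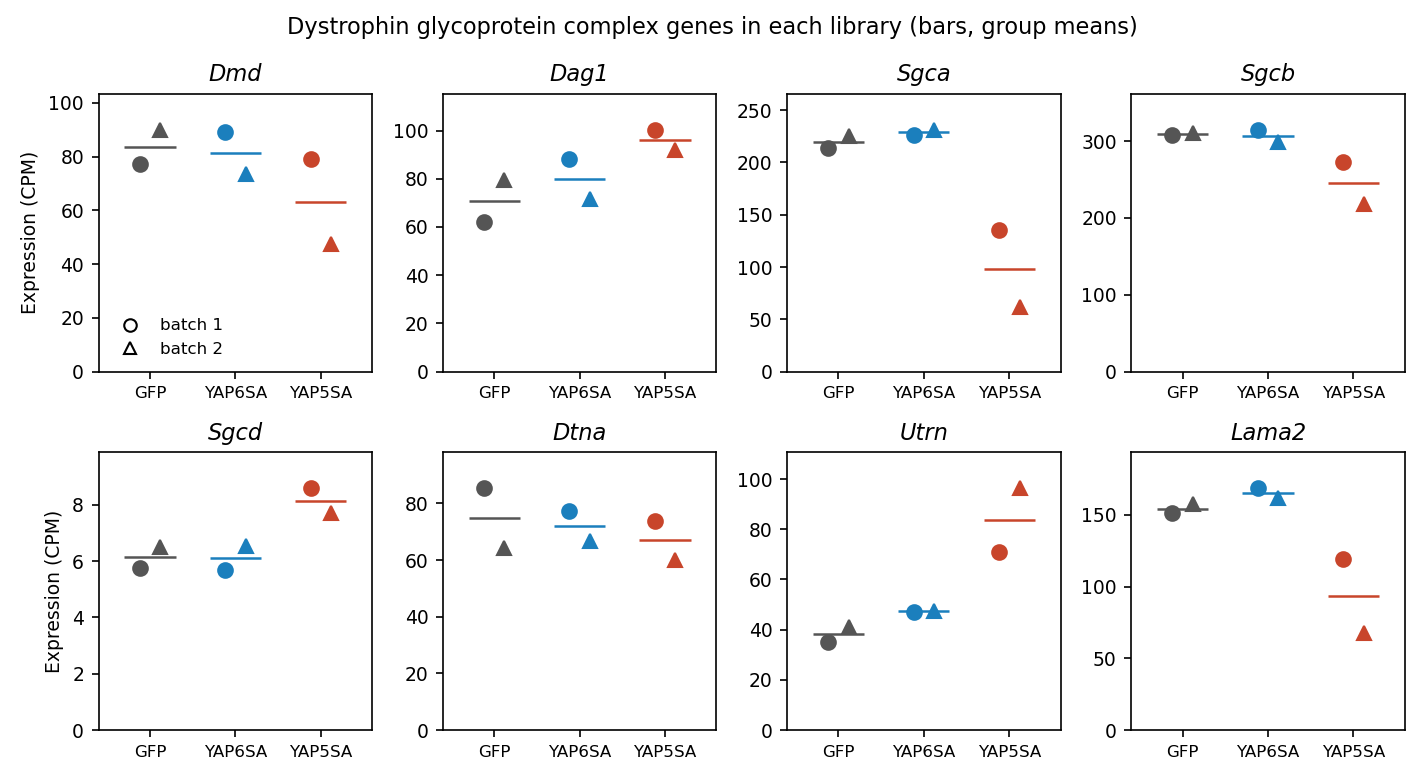
Expression (CPM) of the 8 complex genes in each of the 6 libraries, with circles for batch 1, triangles for batch 2 and horizontal bars for group means. The YAP5SA libraries lie above all others for Utrn (70.9 and 96.3 CPM) and below all others for Sgca (135 and 61.9 CPM) and Lama2 (119 and 68.0 CPM).

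The promoter windows of the genes that changed, and of *Dmd* as the relative of *Utrn*, are printed so that the letters around their RefSeq start sites can be seen. RefSeq (GRCm38.p6) gave 9 windows for 7 of the 8 genes, each of 300 bases, with 250 before and 50 from the start site on. The *Utrn* and *Lama2* windows lie inside the GENCODE M21 genes, which begin upstream at 12869365 and 27619758 on the minus strand. Their letters are thus those around internal start sites. The *Sgca* window and the *Dmd* window printed hold the annotated starts of these genes. The capitals mark matches, on either strand, to the TEAD motif GGAATG, the E-box CANNTG bound by many basic helix-loop-helix factors, the CArG box of the factor SRF and the MEF2 box.
Utrn, chr10:12861686-12861985, minus strand: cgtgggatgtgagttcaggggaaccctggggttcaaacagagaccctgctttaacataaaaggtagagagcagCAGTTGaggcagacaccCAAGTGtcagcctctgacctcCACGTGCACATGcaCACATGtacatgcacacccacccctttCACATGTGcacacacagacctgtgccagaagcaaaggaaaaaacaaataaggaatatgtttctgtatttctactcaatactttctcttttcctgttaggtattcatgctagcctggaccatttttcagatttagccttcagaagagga
Sgca, chr11:94976278-94976577, minus strand: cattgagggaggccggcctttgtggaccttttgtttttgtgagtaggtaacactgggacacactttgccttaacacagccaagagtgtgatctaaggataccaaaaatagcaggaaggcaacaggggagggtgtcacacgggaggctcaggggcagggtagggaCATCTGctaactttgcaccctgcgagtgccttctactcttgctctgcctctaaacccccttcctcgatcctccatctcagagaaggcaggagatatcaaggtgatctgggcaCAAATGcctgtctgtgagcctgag
Lama2, chr10:27616893-27617192, minus strand: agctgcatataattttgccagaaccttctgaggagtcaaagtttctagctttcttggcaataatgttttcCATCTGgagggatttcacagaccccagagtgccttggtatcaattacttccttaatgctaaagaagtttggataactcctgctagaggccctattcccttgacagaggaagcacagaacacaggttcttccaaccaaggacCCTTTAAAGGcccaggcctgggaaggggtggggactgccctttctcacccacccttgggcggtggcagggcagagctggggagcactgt
Dmd, chrX:82948620-82948919, plus strand: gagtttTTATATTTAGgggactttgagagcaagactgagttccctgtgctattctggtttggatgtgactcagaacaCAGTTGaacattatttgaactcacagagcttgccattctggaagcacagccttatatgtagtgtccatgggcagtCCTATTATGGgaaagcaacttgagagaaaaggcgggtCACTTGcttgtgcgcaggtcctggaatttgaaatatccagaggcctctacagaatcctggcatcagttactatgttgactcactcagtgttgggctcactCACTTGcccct
In the *Utrn* window there were 7 E-boxes, 2 of which overlap, and 0.177% of the 32851 RefSeq mouse promoter windows of this length had at least 7. The *Sgca* window had 2 E-boxes, and the *Lama2* window had 1 E-box and 1 CArG box. The *Dmd* window printed, the more upstream of its 2 RefSeq windows, had 3 E-boxes, 1 CArG box and 1 MEF2 box. The other *Dmd* window, chrX:85048045-85048344, had 0 matches to any of the 4 motifs and is not printed. Of all windows, 72.3% held an E-box, 1.63% a CArG box, 3.19% a MEF2 box and 14.7% the letters GGAATG. Those letters occurred in none of the 4 windows printed, and among the members' windows they were found once, for *Sgcd*. A match describes the letters and shows neither binding nor regulation.

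Dystrophin is encoded by *Dmd* (ENSMUSG00000045103), a protein-coding gene that spans 2257272 bp of chromosome X in GRCm38, from 82948870 to 85206141 on the plus strand. Its counts were 1473 and 1382 in GFP, 1758 and 1216 in YAP6SA and 1197 and 848 in YAP5SA. Scaled, these were 77.2 and 89.96 CPM in GFP, 89.1 and 73.5 CPM in YAP6SA and 79.0 and 47.3 CPM in YAP5SA. The YAP5SA library of batch 2 was the lowest of the 6, whereas that of batch 1 lay within the range of the GFP libraries. The log2 fold change of YAP5SA against GFP was -0.44 (standard error 0.21, 95% interval -0.91 to 0.02, FDR 0.157), and within the batches the difference was 0.03 and -0.93. Against YAP6SA the log2 fold change was -0.38 (95% interval -0.85 to 0.08, FDR 0.244), with -0.17 and -0.63 within the batches. *Dmd* passed the threshold without YAP5SA replicate 1, at -0.80 against GFP (FDR 0.00354) and -0.76 against YAP6SA (FDR 0.00684). It also passed against GFP without GFP replicate 1 (-0.79, FDR 0.0498).

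Utrophin, the dystrophin relative found around the membrane of immature and regenerating muscle, is encoded by *Utrn* (ENSMUSG00000019820; chromosome 10, 12382188 to 12869365, minus strand). Its counts were 672 and 632 in GFP, 928 and 787 in YAP6SA and 1074 and 1725 in YAP5SA. In CPM, the libraries gave 35.2 and 41.1 for GFP, 47.0 and 47.6 for YAP6SA and 70.9 and 96.3 for YAP5SA. The YAP5SA libraries were both above the other 4, and both YAP6SA libraries were above both GFP libraries. *Utrn* was 2.18-fold higher in YAP5SA OE CMs than in GFP (log2 fold change 1.12, standard error 0.165, 95% interval 0.76 to 1.49, FDR 0.00186), by 1.01 and 1.23 on the log2 scale within the batches. It passed the threshold in all 15 alternative fits of this comparison, with FDR from 1.44e-07 to 0.0197. Against YAP6SA it was 1.75-fold higher (log2 fold change 0.81, standard error 0.163, 95% interval 0.44 to 1.17, FDR 0.0113), by 0.59 and 1.02 within the batches. Without YAP6SA replicate 2 the latter difference was 0.65 and no longer passed (FDR 0.216). Between YAP6SA and GFP the log2 fold change was 0.32 (95% interval -0.05 to 0.68, unadjusted p = 0.0816, FDR 0.842, edgeR quasi-likelihood), with 0.42 and 0.21 within the batches.

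Per kilobase of exon, the level of *Utrn* relative to *Dmd* was 0.635 and 0.636 in GFP and 0.734 and 0.900 in YAP6SA. In YAP5SA this ratio was 1.25 and 2.83, so that *Utrn* was below *Dmd* in the 4 GFP and YAP6SA libraries and above it in both YAP5SA libraries. Each ratio is for 1 library and depends on the annotated exon lengths of 17108 bp for *Utrn* and 23801 bp for *Dmd*.

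Dystroglycan is made from *Dag1* (ENSMUSG00000039952; chromosome 9, 108204634 to 108263958, minus strand), whose single precursor is cut into the alpha subunit that holds laminin and the beta subunit that crosses the membrane. Its counts were 1186 and 1219 in GFP, 1736 and 1187 in YAP6SA and 1520 and 1643 in YAP5SA. *Dag1* was at 62.1 and 79.4 CPM in GFP, 88.0 and 71.7 CPM in YAP6SA and 100.3 and 91.7 CPM in YAP5SA. Both YAP5SA libraries were above the other 4, and the GFP and YAP6SA ranges overlapped. The log2 fold change of YAP5SA against GFP was 0.44 (standard error 0.177, 95% interval 0.05 to 0.84). It had an unadjusted p of 0.0323 and missed the threshold after adjustment (edgeR quasi-likelihood, FDR 0.102). Within the batches the difference was 0.69 and 0.21, and against YAP6SA it was 0.27 (95% interval -0.13 to 0.66, FDR 0.341).

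The sarcoglycans are membrane proteins that assemble with each other and steady the link of dystroglycan to dystrophin. Alpha-sarcoglycan, the member restricted to striated muscle, is encoded by *Sgca* (ENSMUSG00000001508; chromosome 11, 94962791 to 94976327, minus strand). Its counts were 4078 and 3459 in GFP, 4470 and 3825 in YAP6SA and 2049 and 1109 in YAP5SA. *Sgca* stood at 214 and 225 CPM in GFP, 227 and 231 CPM in YAP6SA and 135 and 61.9 CPM in YAP5SA. The 4 GFP and YAP6SA libraries lay close together, and both YAP5SA libraries were far below them. It was 2.33-fold lower in YAP5SA OE CMs than in GFP (log2 fold change -1.22, standard error 0.265, 95% interval -1.81 to -0.63, FDR 0.0112). Against YAP6SA it was 2.42-fold lower (log2 fold change -1.28, 95% interval -1.87 to -0.69, FDR 0.0122).

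The *Sgca* difference was larger in batch 2, and whether the batches differ in it was not tested. Against GFP it was -0.66 in batch 1 and -1.86 in batch 2 on the log2 scale, and against YAP6SA it was -0.74 and -1.90. Without YAP5SA replicate 1 the log2 fold change against GFP was -1.85 (FDR 7.18e-07), and without YAP5SA replicate 2 it was -0.66 (FDR 0.0103). It no longer passed against GFP without GFP replicate 2 (-0.92, FDR 0.0805), nor against YAP6SA without YAP6SA replicate 2 (-1.01, FDR 0.101). Against YAP6SA, without YAP5SA replicate 2, it was -0.72 (FDR 0.00781).

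Beta-sarcoglycan is encoded by *Sgcb* (ENSMUSG00000029156; chromosome 5, 73632749 to 73647790, minus strand), a core subunit found in many tissues. Its counts were 5868 and 4779 in GFP, 6210 and 4956 in YAP6SA and 4137 and 3903 in YAP5SA, the most of any member in every library. *Sgcb* was at 307 and 311 CPM in GFP, 315 and 299 CPM in YAP6SA and 273 and 218 CPM in YAP5SA. Both YAP5SA libraries were below the other 4. The log2 fold change against GFP was -0.34 (95% interval -0.70 to 0.02, FDR 0.155) and against YAP6SA -0.33 (95% interval -0.69 to 0.03, FDR 0.196), which did not pass. Without YAP5SA replicate 1 it did, at -0.49 (FDR 0.0261) and -0.48 (FDR 0.0337).

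Delta-sarcoglycan, the partner of beta-sarcoglycan in the core of the subcomplex, is encoded by *Sgcd* (ENSMUSG00000020354; chromosome 11, 46896253 to 47988969, minus strand). It was the least abundant member, with 110 and 100 counts in GFP, 112 and 108 in YAP6SA and 130 and 138 in YAP5SA. In CPM these were 5.76 and 6.51 for GFP, 5.68 and 6.53 for YAP6SA and 8.58 and 7.70 for YAP5SA. The 2 libraries of YAP5SA were the highest, but at this depth the interval of the difference was wide. The log2 fold change was 0.41 against GFP (95% interval -0.28 to 1.11, FDR 0.376) and 0.42 against YAP6SA (95% interval -0.27 to 1.11, FDR 0.399).

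The sarcoglycan genes therefore did not move as 1 unit in these libraries. Per kilobase of exon, *Sgca* relative to *Sgcb* was 1.62 and 1.69 in GFP and 1.68 and 1.80 in YAP6SA. In YAP5SA the ratio was 1.16 and 0.664, both below the range of the other 4 libraries.

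Dystrobrevin alpha, a cytoplasmic relative of dystrophin that binds it and holds syntrophins, is encoded by *Dtna* (ENSMUSG00000024302; chromosome 18, 23415135 to 23659715, plus strand). Its counts were 1629 and 989 in GFP, 1523 and 1105 in YAP6SA and 1119 and 1077 in YAP5SA. *Dtna* had 85.3 and 64.4 CPM in GFP, 77.2 and 66.8 CPM in YAP6SA and 73.9 and 60.1 CPM in YAP5SA. Its libraries ordered by batch, with batch 1 above batch 2 in each group, and the groups overlapped. The log2 fold change was -0.15 against GFP (95% interval -0.48 to 0.17, FDR 0.481) and -0.11 against YAP6SA (95% interval -0.43 to 0.22, FDR 0.664). An antisense gene, Gm47898, shares 90 bp of exon with *Dtna* and had 4 counts over all libraries.

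Laminin alpha 2 is the long chain of the main laminin of the muscle basement membrane and is encoded by *Lama2* (ENSMUSG00000019899; chromosome 10, 26980036 to 27619758, minus strand). Its counts were 2888 and 2416 in GFP, 3325 and 2673 in YAP6SA and 1807 and 1217 in YAP5SA. *Lama2* was at 151 and 157 CPM in GFP, 169 and 162 CPM in YAP6SA and 119 and 68.0 CPM in YAP5SA. Both YAP5SA libraries were below the other 4, and both YAP6SA libraries were above both GFP libraries. It was 1.69-fold lower in YAP5SA OE CMs than in GFP (log2 fold change -0.76, standard error 0.207, 95% interval -1.22 to -0.30, FDR 0.0275). Against YAP6SA it was 1.80-fold lower (log2 fold change -0.85, 95% interval -1.31 to -0.39, FDR 0.0236). An antisense gene, Gm48084, shares 631 bp of exon with *Lama2* and had 0 counts in every library.

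As for *Sgca*, the *Lama2* difference was larger in batch 2, with -0.34 and -1.21 against GFP and -0.50 and -1.25 against YAP6SA. Without the batch term it missed the threshold, at -0.72 against GFP (FDR 0.0695) and -0.82 against YAP6SA (FDR 0.0629). It also missed it against GFP without GFP replicate 2 (-0.51, FDR 0.291) and without YAP5SA replicate 2 (-0.36, FDR 0.157). Against YAP6SA it missed it without YAP6SA replicate 2 (-0.70, FDR 0.224) and without YAP5SA replicate 2 (-0.46, FDR 0.0919). Without YAP5SA replicate 1 it was larger, at -1.18 against GFP (FDR 4.25e-05) and -1.28 against YAP6SA (FDR 2.74e-05).

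**Figure D2:**
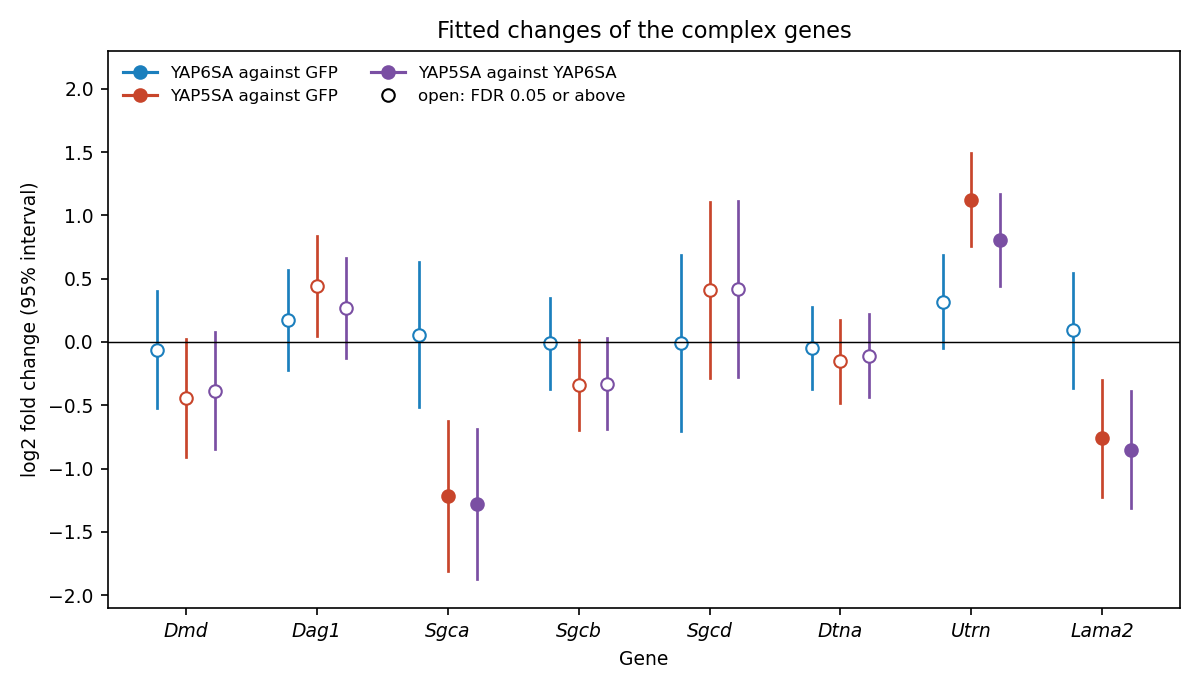
Fitted log2 fold changes (points) and 95% intervals (lines) of the 8 complex genes in the 3 comparisons, with filled points for FDR under 0.05 in edgeR's quasi-likelihood test. Utrn, Sgca and Lama2 have filled points in both YAP5SA comparisons, and all points of YAP6SA against GFP are open.

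In YAP6SA against GFP, FDR ran from 0.842 to 0.998 over the 8 genes, and 0 had an unadjusted p under 0.05. DESeq2 and limma-voom likewise called 0 of them. The widest 95% interval of the log2 fold change, that of *Sgcd*, ran from -0.71 to 0.69. The difference had the same sign in both batches for 3 of the 8 genes, *Sgca*, *Utrn* and *Lama2*. For *Dmd* it was 0.21 in batch 1 and -0.29 in batch 2, and for *Dag1* it was 0.50 and -0.15. The groups did not overlap for 3 of the 8 genes, against 34.3% of all genes.

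In YAP5SA against GFP, the sign was the same in both batches for 7 of the 8 genes, with *Dmd* as the exception, and in YAP5SA against YAP6SA for 8 of 8. The groups did not overlap for 6 of the 8 genes in each of these comparisons, against 61% and 57.6% of all genes. With 1 gene higher and 2 lower of 8, the share of members called was 3 of 8 in both, beside the 22% and 14.7% of all genes given above. The median log2 fold change of the 8 genes was -0.25 against GFP and -0.22 against YAP6SA, beside a median of all genes of -0.003 and -0.013. The YAP5SA libraries were farther from GFP in batch 2 than in batch 1 for 5 of the 8 genes.

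Levels of different genes can be compared only per exon length, as CPM per kilobase. In GFP, *Sgca* was the most abundant member with 123 to 130 CPM per kb, followed by *Sgcb* with 75.9 to 76.8. *Dag1* (9.77 to 12.5) and *Lama2* (9.26 to 9.63) came next, then *Dtna* (3.80 to 5.04), *Dmd* (3.24 to 3.78), *Utrn* (2.06 to 2.41) and *Sgcd* (0.698 to 0.788). The ranges of neighbours in this order did not overlap, and the order was the same in YAP6SA. Among 13320 genes with an exon length, the GFP level of *Sgca* was at percentile 98.4, that of *Sgcb* at 96.6, that of *Dmd* at 37.6 and that of *Sgcd* at 9.61.

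In YAP5SA the order was different. *Sgcb* (53.8 to 67.4 CPM per kb) and *Sgca* (35.7 to 77.9) overlapped at the top. *Dag1* came next with 14.4 to 15.8 CPM per kb, apart from its neighbours. *Lama2* (4.16 to 7.30), *Utrn* (4.14 to 5.63) and *Dtna* (3.55 to 4.36) overlapped one another. *Dmd* followed with 1.99 to 3.32 CPM per kb, below *Dtna* without overlap, and *Sgcd* was again the lowest with 0.933 to 1.04. *Utrn* thus stood above *Dmd* per kilobase of exon in YAP5SA, with ranges that did not overlap. In batch 1 this order rests on the annotated exon lengths, since the CPM there were 70.9 for *Utrn* and 79.0 for *Dmd*.

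**Figure D3:**
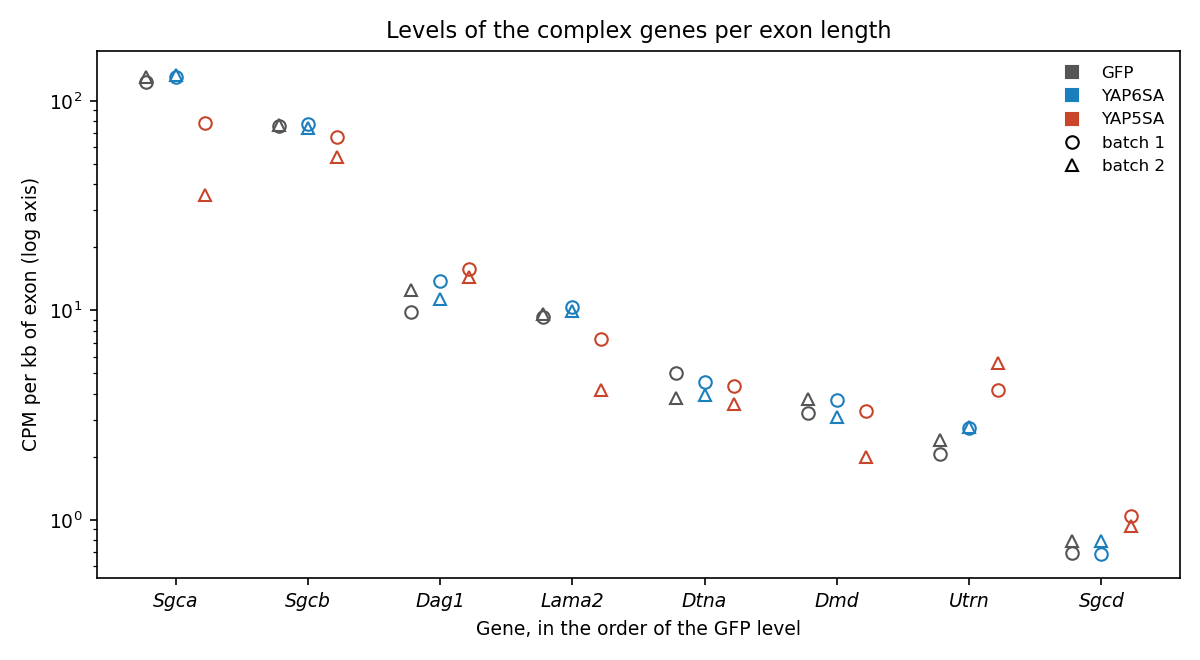
Level of each complex gene as CPM per kilobase of exon (log axis) in the 6 libraries, with genes ordered by their GFP level, colours for groups, circles for batch 1 and triangles for batch 2. The levels span from Sgca at 123 to 130 down to Sgcd at 0.698 to 0.788 in GFP, and Utrn lies below Dmd in GFP and above it in YAP5SA.

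Further genes of the pathway were taken from 5 fixed lists with 64 genes, 57 of which were tested. In YAP6SA against GFP 0 of the 57 were called (edgeR quasi-likelihood; DESeq2 and limma-voom also 0), and 7 had an unadjusted p under 0.05. In YAP5SA against GFP 8 were higher and 8 were lower, with a median log2 fold change of 0.04, beside the 12.8% and 9.18% of all genes. In YAP5SA against YAP6SA 5 were higher and 4 were lower, beside 9% and 5.68%. With no replicate block (no batch term), the counts were 7 against GFP and 5 against YAP6SA, while the calls over all genes went from 2931 to 2090 and from 1956 to 1152. With 1 library left out, the count against GFP was 3 without GFP replicate 2 (788 of all genes), 9 without YAP5SA replicate 2 (1736), 26 without YAP5SA replicate 1 (4799) and 12 for each of the other three (1888 to 2553). Against YAP6SA it was 5 without YAP6SA replicate 1 (1233 of all genes), 3 without YAP6SA replicate 2 (410), 20 when YAP5SA replicate 1 was left out (4098) and 6 for YAP5SA replicate 2 (1137). The list counts of both comparisons were lowest and highest in the same leave-one-out fits as the counts over all genes.

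Of the 13 other genes of the dystrophin complex, 9 were tested, and in YAP5SA against GFP 3 were higher and 0 were lower. *Cav3*, the muscle caveolin that binds dystroglycan, was at 60.9 and 74.2 CPM in GFP, 97.1 and 81.3 CPM in YAP6SA and 112 and 154 CPM in YAP5SA. All YAP5SA values of *Cav3* were above the rest, its log2 fold change against GFP was 0.98 (standard error 0.184, FDR 0.00598), and it passed with each of the 6 libraries left out in turn. *Sntb1*, a syntrophin that recruits signalling proteins, was at 16.2 and 11.7 CPM in GFP, 21.4 and 14.1 CPM in YAP6SA and 26.9 and 21.3 CPM in YAP5SA. Its log2 fold change against GFP was 0.80 (standard error 0.212, FDR 0.0242), which passed in 3 of the 6 fits with 1 library left out and not without the batch term.

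*Drp2*, a shorter dystrophin relative best known from Schwann cells, was barely counted in GFP. Its counts were 20 and 0 in GFP, 49 and 23 in YAP6SA and 92 and 184 in YAP5SA. The highest values were those of both YAP5SA libraries. The test against GFP passed (FDR 0.00988), but the fitted size rests on the 20 counts of 1 GFP library. *Sgcz*, *Sntg1*, *Sntg2* and *Nos1* did not pass the filter on low counts.

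Of the 14 laminin chains and other matrix ligands, 13 were tested, and in YAP5SA against GFP 3 were higher and 2 were lower. *Agrn*, which encodes agrin, a proteoglycan ligand of dystroglycan, was at 646 and 986 CPM in GFP, 653 and 868 CPM in YAP6SA and 1294 and 1812 CPM in YAP5SA. Both YAP5SA libraries were above the others, with a log2 fold change of 0.94 against GFP (standard error 0.18, FDR 0.00633) and 1.02 against YAP6SA (FDR 0.00588). Each passed in 4 of the 6 fits with 1 library left out. *Lamc1*, the common gamma chain of laminins, rose by 0.64 on the log2 scale against GFP (FDR 0.0196). The *Lamc1* call held in 3 of the 6 fits with 1 library left out (FDR up to 0.139) and not without the batch term. *Lamc3*, a rarer gamma chain, had 9 and 0 counts in GFP, 0 and 5 in YAP6SA and 77 and 115 in YAP5SA, and was called against both (FDR 0.0105 and 0.00934). It was not called by DESeq2 in either comparison, nor against GFP without GFP replicate 2 (FDR 0.0554).

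The chains that were lower against GFP were *Lama4* and *Lamb2*. *Lama4*, a chain of vessel and muscle laminins, changed by -0.64 (FDR 0.0332), with -0.30 and -0.997 within the batches. Its call was lost without GFP replicate 2 (-0.41, FDR 0.399), without YAP5SA replicate 2 (-0.34, FDR 0.193) and without the batch term. *Lamb2*, the beta chain of laminins at synapses and in mature muscle, changed by -0.67 (FDR 0.0496). The *Lamb2* call passed in 1 of the 6 fits with 1 library left out, the one without YAP5SA replicate 1. It was also lost without the batch term (FDR 0.0704), with only the 4 libraries compared (FDR 0.096) and with at least 10 counts required in every library (FDR 0.0507). Against YAP6SA, *Lama3* was higher by 1.58 (FDR 0.00443) and *Lamb3* lower by -1.01 (FDR 0.031), both chains best known from epithelial laminin. The *Lama3* call held in 6 of the 6 fits with 1 library left out. The *Lamb3* call held in 3 of them, with a log2 fold change from -1.56 to -0.53 (FDR up to 0.185), and not without the batch term. *Lama3* had 29.0 and 14.3 CPM in GFP, 11.6 and 11.2 CPM in YAP6SA and 36.5 and 32.0 CPM in YAP5SA.

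Alpha-dystroglycan holds laminin only through sugars that a chain of enzymes builds on it. Of the 18 genes for these steps 17 were tested, and 0 were higher in YAP5SA OE CMs than in GFP or in YAP6SA OE CMs (edgeR quasi-likelihood). The log2 fold change against GFP was above 0 for 9 of the 17, with a median of 0.04 beside -0.003 for all genes. Against YAP6SA it was above 0 for 7 of the 17, with a median of -0.06 beside -0.013. *Pomt1* and *Pomgnt1*, which act early in the building of the sugar chain, did not pass in either comparison.

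Of the 12 genes of the linked cytoskeleton 11 were tested, and in YAP5SA against GFP 0 were higher and 4 were lower. *Ank2*, an ankyrin that helps place dystrophin at the membrane, was at 267 and 312 CPM in GFP, 299.9 and 293 CPM in YAP6SA and 211 and 141 CPM in YAP5SA. Both YAP5SA libraries were the lowest, with a log2 fold change of -0.74 against GFP (FDR 0.0269) and -0.76 against YAP6SA (FDR 0.0306). *Plec*, which encodes the cytolinker plectin, changed by -0.68 (FDR 0.0372). *Trim72*, a membrane repair protein also called MG53, changed by -0.63 (FDR 0.0146), and *Mast2*, a kinase that binds syntrophin, by -0.57 (FDR 0.0424). *Ank2*, *Plec* and *Mast2* were not called without the batch term, nor *Plec* (FDR 0.0719) and *Mast2* (FDR 0.136) with only the 4 libraries compared, and with 1 library left out *Plec* and *Mast2* were called in 2 of 6 fits each, *Ank2* and *Trim72* in 4. Against YAP6SA the *Ank2* call held in 3 of 6 (FDR up to 0.262) and was also lost without the batch term.

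Integrins are the other laminin receptors of CMs. All 7 genes of the laminin-binding integrin list were tested, and in YAP5SA against GFP 2 were higher and 1 was lower. *Itgb1*, the common beta subunit, was at 89.4 and 73.8 CPM in GFP, 139.6 and 110 CPM in YAP6SA and 158 and 170.3 CPM in YAP5SA. The 3 groups did not overlap, and the log2 fold change was 1.02 in YAP5SA against GFP (standard error 0.161, FDR 0.00266). In YAP6SA against GFP it was 0.61, with an unadjusted p of 0.00333 that missed the threshold after adjustment (edgeR quasi-likelihood, FDR 0.467). *Itga3*, an alpha subunit, was at 119 and 131 CPM in GFP, 78.5 and 131 CPM in YAP6SA and 163 and 366 CPM in YAP5SA. It was called against GFP (0.96, FDR 0.0138) and against YAP6SA (1.29, FDR 0.00512). The call against GFP was lost without GFP replicate 2 (0.57, FDR 0.227) and without the batch term (1.08, FDR 0.0667).

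*Itga7*, the alpha subunit of the main laminin receptor of striated muscle, was called against YAP6SA (0.74, FDR 0.0277) and not against GFP (0.51, FDR 0.0748). The call against YAP6SA held in 3 of the 6 fits with 1 library left out (FDR up to 0.26) and not without the batch term. *Itgb1bp2*, which encodes melusin, a muscle protein on the tail of the beta subunit, was lower. It was at 898 and 880 CPM in GFP, 1048 and 1031 CPM in YAP6SA and 705 and 348 CPM in YAP5SA. Its log2 fold change was -0.82 against GFP (FDR 0.044) and -1.04 against YAP6SA (FDR 0.0235), and without the batch term both calls were lost. *Itgb1* passed against GFP with each of the 6 libraries left out, whereas *Itgb1bp2* passed in 2 of these fits. Against YAP6SA the *Itgb1bp2* call was lost without YAP6SA replicate 2 (-0.80, FDR 0.307).

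**Figure D4:**
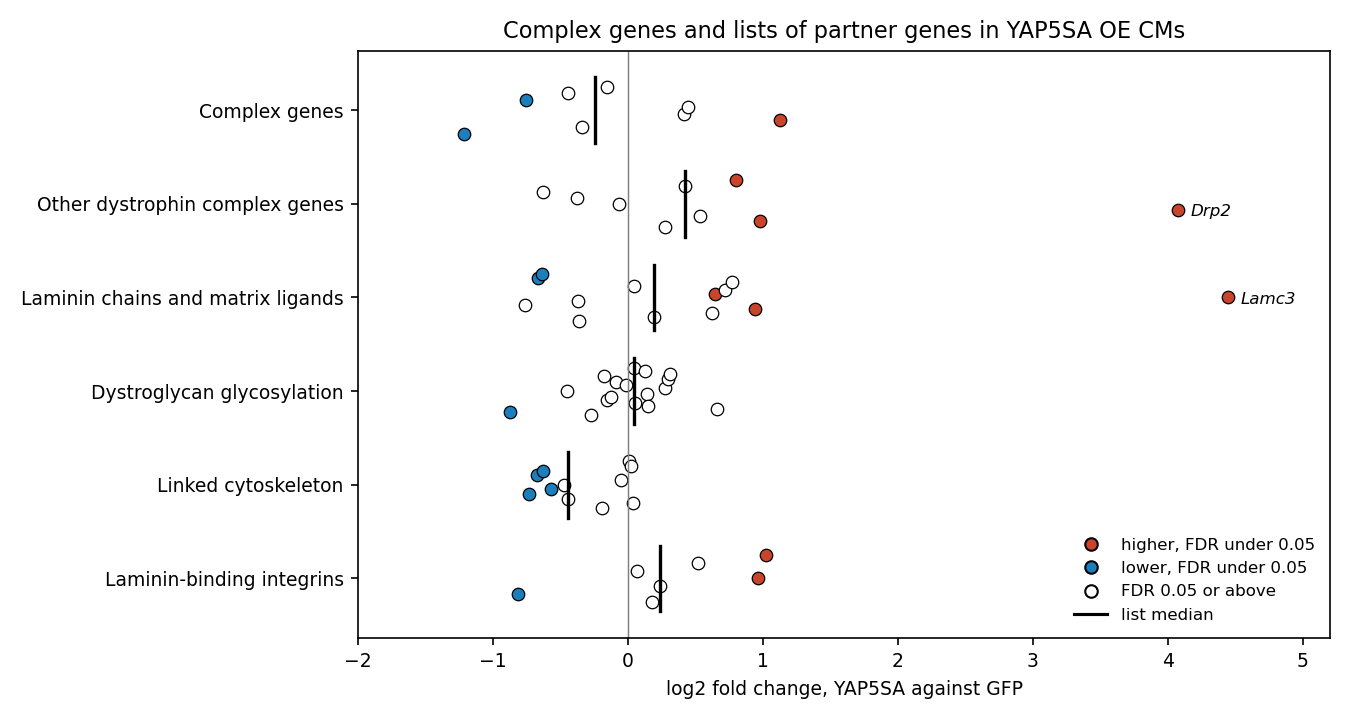
Log2 fold change of YAP5SA against GFP for the 8 complex genes and the tested genes of the 5 partner lists, with 1 point per gene, colours for calls by edgeR's quasi-likelihood test and black lines for list medians. Calls in both directions appear among the complex genes, the laminin chains and the integrins, and the 4 called cytoskeletal genes are all lower.

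The labelled cell type was checked with marker genes. The 9 CM markers summed to 56088 and 75273 CPM in GFP, 51580 and 68106 CPM in YAP6SA and 44929 and 32127 CPM in YAP5SA, with *Myh6* as the most abundant gene. All 9 were counted in every library. The sum was lowest in both YAP5SA libraries, and in batch 2 the gap to GFP was the wider one, as it was for *Sgca* and *Lama2*. Of the 9 genes, 2 were called lower in YAP5SA against GFP, beside 9.18% of all genes. These were *Pln* (-1.04, FDR 0.00784) and *Ryr2* (-0.81, FDR 0.0455), both of sarcoplasmic calcium handling. Lower values were not limited to these 2, since the log2 fold change was above 0 for only 1 of the 9 genes. The median of the 9 was -0.76, beside -0.003 for all genes, and 6 had an unadjusted p under 0.05 (edgeR quasi-likelihood).

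Markers of other heart cells were counted as well. The 8 fibroblast markers summed to 1363 and 857 CPM in GFP, 1771 and 981 CPM in YAP6SA and 1491 and 902 CPM in YAP5SA, led by *Col3a1*. The 8 endothelial markers summed to 631 and 486 CPM in GFP, 741 and 497 CPM in YAP6SA and 648 and 493 CPM in YAP5SA, led by *Egfl7*. Both sums were higher in batch 1 than in batch 2 in each group, and 0 of these 16 genes were called in any comparison by edgeR's quasi-likelihood test. In YAP5SA against GFP, 3 fibroblast markers and 0 endothelial markers had an unadjusted p under 0.05. The 7 mural cell markers summed to 241 and 187 CPM in GFP, 272 and 222 CPM in YAP6SA and 238 and 199 CPM in YAP5SA, led by *Cspg4*. Of these, *Myh11* (1.00, FDR 0.0274) and *Cnn1* (1.70, FDR 0.0322) were called higher in YAP5SA against GFP, beside 12.8% of all genes. The mural list did not rise as a whole, since the log2 fold change was above 0 for 3 of the 7, with a median of -0.04.

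The 7 macrophage markers summed to 60.2 and 86.8 CPM in GFP, 73.1 and 99.1 CPM in YAP6SA and 83.1 and 118 CPM in YAP5SA, led by *Csf1r*. *C1qa* was called higher in YAP5SA against GFP (0.96, FDR 0.0228). Within each batch the macrophage sum was highest in YAP5SA, as *Utrn* was. The sums of the erythroid, Schwann cell and skeletal muscle fibre lists lay between 24.7 and 108 CPM, and the erythroid and skeletal muscle lists were led by *Hbb-bs* and *Ckm*. *Actn3* and *Myh4* had at most 3 counts in every library. *Lama2*, *Utrn*, *Dag1*, *Sgcb* and *Sgcd* are also used by cells other than CMs, and the part of such cells in their values was not tested.

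**Figure D5:**
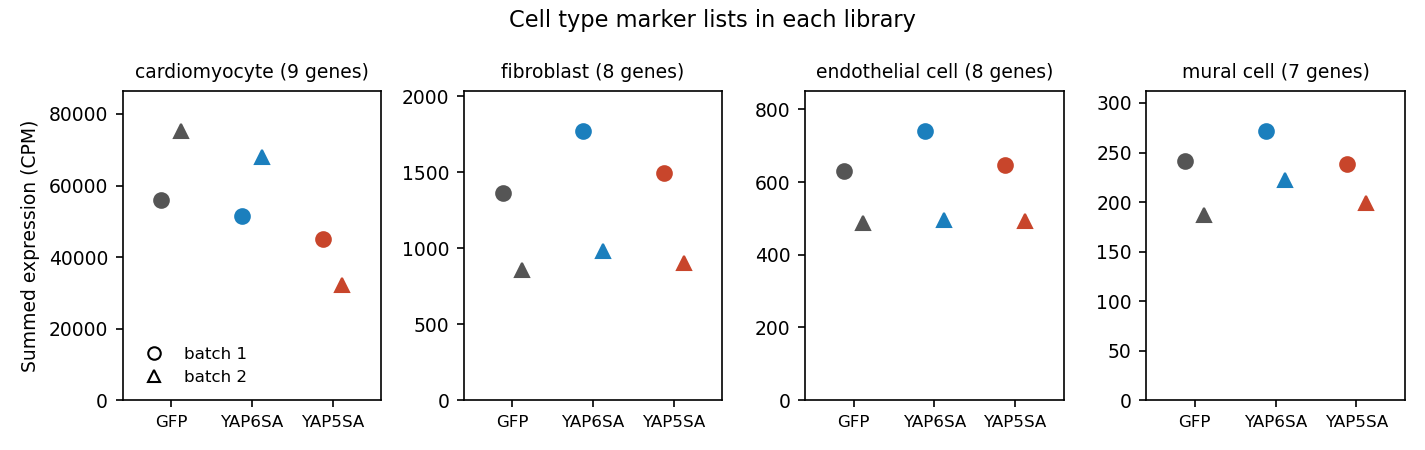
Summed expression (CPM) of 4 marker lists in each library, with circles for batch 1 and triangles for batch 2. The CM sum is lowest in the YAP5SA libraries (44929 and 32127 CPM), and the fibroblast, endothelial and mural sums are higher in batch 1 than in batch 2 in each group.

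Across the 6 libraries, *Sgca*, *Sgcb* and *Lama2* had closely similar profiles of log2 CPM. Pearson's r was 0.996 for *Sgca* and *Lama2*, 0.991 for *Sgcb* and *Lama2* and 0.990 for *Sgca* and *Sgcb*. *Dmd* lay nearest to *Sgcb* among the members (r = 0.934), and *Utrn* ran opposite to *Sgca* (r = -0.920) and *Sgcb* (r = -0.922). These 6 points share groups, batches and library sizes, and r is a description of them.

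The gene most like each member over the 6 libraries was picked among 9882 other genes (9883 for *Sgcd*) whose log2 CPM averaged 3 or more. It was *Lmbrd1* for *Dmd* (r = 0.997), *Tmed7* for *Utrn* (0.995), *Pced1a* for *Dag1* (0.991) and *Gmpr* for *Sgca* (0.999). For *Sgcb* it was *Sbk1* (0.998), for *Dtna* 2610301B20Rik (0.990) and for *Lama2* *Idua* (0.998). *Gm7694* was the most like *Sgcd* (0.984). A like profile does not mean a like size of change, since *Sbk1* differed by -1.62 in YAP5SA against GFP on the log2 scale and *Sgcb* by -0.34.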

How the data were processed

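Nuclear poly-A RNA of CMs was sequenced in 6 libraries. STAR alignments to mm10 (Ensembl 94) were counted by the authors, who deposited raw counts per gene, neither normalized nor filtered, and the versions of the tools are not given in the sources used here. Reads that mapped to several places, to more than one gene or outside genes were left out of the gene counts, library sizes and tests. These were 2.90% to 4.19%, 5.79% to 6.31% and 9.43% to 9.84% of the reads in a library, and 3.03% to 3.63% were unmapped.

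Symbols and exon lengths came from GENCODE M21 (GRCm38), in which 54495 of the 54532 genes had a name. The filter of the study's methods was used, a median log2 CPM above 1 in at least 1 group. A quasi-likelihood model with terms for group and batch was fitted to all 6 libraries in edgeR 4.0.16 (R 4.3.3, TMM scaling). DESeq2 1.42.0 and limma 3.58.1 (voom) were alternatives, with scaling by upper quartile or RLE, a minimum of 10 counts per library or no filter, the likelihood ratio test, no batch term, only the 4 libraries compared, thresholds of 0.1 and 0.01 and each library left out in turn. Standard errors were derived from the fold change and its F statistic. Of the members, only *Dtna* and *Lama2* shared exon bases with another gene. The steps were tested on simulated data.

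The batch term pairs the libraries. The pairing comes from the labels, which give the batch, and the deviations from the group means correlated within a batch over 13323 genes (0.338 between GFP and YAP6SA, 0.169 between the YAP variants, 0.091 between YAP5SA and GFP). No library was a copy, since the chi-square per degree of freedom between replicates was 27.7 in GFP, 31.5 in YAP6SA and 43.6 in YAP5SA. An exact permutation test of 2 against 2 libraries cannot go below p = 0.333 and was not used. A count of 0 allows up to 3 counts, for counting error only.

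The members and lists were chosen with earlier results of these data known. The text names the 8 members, *Yap1*, the genes of each partner list with FDR under 0.05 in a comparison (up to 5 per list and comparison), the most abundant and the called or uncounted markers, and the gene most like each member. List genes named as not called and those below the filter were named after their values were seen. Some list genes counted in the totals are not reported here by name.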

Additional observations from a re-analysis of the deposited data

How the results depend on the processing

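For the members, 119 of 144 values with 1 library left out and 213 of 216 values under the other alternatives kept their direction and their side of the threshold. With FDR under 0.01, 1 member was called in YAP5SA against GFP and 0 in YAP5SA against YAP6SA. With each library left out in turn, the members called numbered 1 to 5 and 0 to 5 in these comparisons and 0 to 0 in YAP6SA against GFP; these fits have 1 group of 1 library, which is assumed to vary like the others. No replicate block (no batch term) gave 2 members in each YAP5SA comparison, and partner list counts of 7 against GFP and 5 against YAP6SA, beside 2090 and 1152 of all genes. The partner lists gave 1 gene (*Drp2*) in YAP6SA against GFP with no filter, 2 (*Itgb1* and *Nid1*) with only the 4 libraries compared, and 0 to 2 with a library left out. In YAP5SA against GFP they gave 4 at FDR under 0.01 and 3 to 26 with a library left out. In YAP5SA against YAP6SA they gave 16 with no filter, 16 by the likelihood ratio test, 18 at FDR under 0.1, 4 at FDR under 0.01 and 3 to 20 with a library left out. Directions turned only in YAP6SA against GFP, where no member was called. There the log2 fold change with a library left out ran from -0.40 to 0.33 for *Dmd*, -0.10 to 0.46 for *Dag1*, -0.25 to 0.40 for *Sgca*, -0.12 to 0.10 for *Sgcb*, -0.11 to 0.084 for *Sgcd*, -0.12 to 0.032 for *Dtna* and -0.13 to 0.35 for *Lama2*, and upper quartile scaling gave 0.000203 for *Sgcd*. The cause of these changes was not tested. Depth limits *Sgcd*, *Drp2* and *Lamc3* most, the genes with the fewest counts among the members and the called partner genes.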
